A study of Mus musculus with 10 samples.

Results

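The T cell receptor β (TRB) chains of epidermal αβ T cells from mice without γδ T cells were compared with those of lymph node αβ T cells from the same strain. The 4 libraries were chosen by their titles, from 10 samples in the series: epidermal A, B and C, and the only lymph node library. They held 27518 of the 29481 TRB clonotypes in the series, of which 825 were epidermal and 26693 were from lymph node. All 4 came from the strain B6.129P2-Tcrdtm1Mom/J (Tcrd-/-), in which the T cell receptor δ gene is disrupted, and no treatment, age or time is named. Epidermal cells came from ear skin and were sorted as living CD45+ cells with high CD3 and high TCRβ. Lymph node cells came from peripheral nodes and were sorted as living cells positive for CD45, CD3 and TCRβ. The epidermal samples are titled DETC, the abbreviation for dendritic epidermal T cell. Only TRB transcripts were read, so neither the loss of Tcrd nor the labelled cell type can be checked in these data.

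Each library was 1 pool of cells from 5 to 18 animals, so the spread between libraries is between pools, and no value per animal exists. Epidermal A had 46114 reads in 318 clonotypes, B had 51359 in 435, C had 43891 in 72, and lymph node had 52498 in 26693. An epidermal clonotype therefore had 145, 118 and 610 reads on average, against 1.97 in lymph node. By their names in the labels, epidermal A and lymph node belong to 1 set of libraries, and epidermal B and C to 2 other sets. Tissue and set can thus be separated only in epidermal A, whose own difference from lymph node is given with each result. Clonotypes were told apart by V, J and the nucleotides of the third complementarity-determining region (CDR3), and each counted once whatever its reads.

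A β chain is assembled in the thymus by joining 1 V, 1 D and 1 J segment. Nucleases trim the segment ends, and terminal deoxynucleotidyl transferase adds untemplated nucleotides at both joints. This enzyme is scarce in the fetal thymus and abundant in the adult one, so chains without added nucleotides are a known feature of early waves of T cells. In wild-type epidermis the resident cells are γδ T cells that arise in such a fetal wave. The CDR3 formed at the joint is the part of the β chain that mainly contacts antigen.

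The sequences of large clonotypes show what a joint with few added bases looks like. For each epidermal library the 2 largest clonotypes listed without inserted nucleotides and the largest listed with them are printed, from the first cysteine codon to the last codon of the CDR3. For lymph node the largest of each kind is printed for TRBV13-2 with TRBJ2-4. Capitals mark bases left unassigned after V, J and then D segments of GENCODE M21 (GRCm38) were matched. They are not shown to be untemplated, and how they arose was not tested.
epidermal A, TRBV12-2 TRBJ2-1: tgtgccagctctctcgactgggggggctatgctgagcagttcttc
epidermal A, TRBV26 TRBJ1-3: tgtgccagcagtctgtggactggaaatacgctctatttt
epidermal A, TRBV12-2 TRBJ2-3: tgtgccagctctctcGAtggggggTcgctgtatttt
epidermal B, TRBV13-2 TRBJ2-5: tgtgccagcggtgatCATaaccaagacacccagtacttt
epidermal B, TRBV17 TRBJ2-7: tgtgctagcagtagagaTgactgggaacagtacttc
epidermal B, TRBV13-3 TRBJ1-1: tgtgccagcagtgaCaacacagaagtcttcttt
epidermal C, TRBV15 TRBJ1-1: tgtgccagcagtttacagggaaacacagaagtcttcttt
epidermal C, TRBV13-3 TRBJ2-7: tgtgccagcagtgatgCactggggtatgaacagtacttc
epidermal C, TRBV29 TRBJ2-1: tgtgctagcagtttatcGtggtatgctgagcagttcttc
lymph node, TRBV13-2 TRBJ2-4: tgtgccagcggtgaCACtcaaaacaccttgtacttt
lymph node, TRBV13-2 TRBJ2-4: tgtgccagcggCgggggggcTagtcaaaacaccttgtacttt

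The first of these took 2213 reads (4.80%) of epidermal A, and every base of it is found in TRBV12-2, TRBD2 or TRBJ2-1. The largest clonotype of epidermal C, with TRBV15 and TRBJ1-1, took 9570 reads (21.8%) and is likewise made of segment bases only. The TRBV13-2 TRBJ2-5 clonotype of epidermal B took 1130 reads (2.20%). The deposited positions list it without inserted nucleotides, while 3 of its bases match no reference segment. The 2 lymph node sequences had 6 and 7 reads. None of the 9 epidermal sequences was found in lymph node.

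Epidermal clonotypes lacked inserted nucleotides far more often than lymph node clonotypes did. By the deposited positions, the share of complete clonotypes with none was 46.1% in epidermal A, 46.3% in B and 36.6% in C, against 17.4% in lymph node. A complete clonotype starts with cysteine and ends with phenylalanine or tryptophan, and there were 304, 387, 71 and 26217 of them. The 95% Wilson intervals were 40.5 to 51.7%, 41.3 to 51.2%, 26.4 to 48.2% and 17.0 to 17.9%. All 3 epidermal values lay above the lymph node value, by 28.6, 28.8 and 19.2 percentage points. The first of these was measured within 1 library set.

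The epidermal mean was 43.0% ± 5.50 (SD, n = 3), 25.5 points above lymph node. With 3 libraries against 1, an exact two-sided permutation over the 4 ways to set 1 library apart cannot give less than p = 0.25, which was its value here. To allow for the unequal clonotype numbers, lymph node clonotypes were drawn 1000 times in the number of each epidermal library. The middle 95% of the draws ran from 13.2 to 21.4% for A, 13.4 to 20.9% for B and 8.45 to 26.8% for C. Each epidermal value lay above its range, and above the highest single draw, which was 25.3%, 23.3% and 32.4%.

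The contrast was larger when the joints were read against reference segments, which were not run past their germline ends. The share without inserted nucleotides was then 37.0%, 39.4% and 31.0% in epidermal A, B and C, and 7.89% in lymph node. The epidermal mean of 35.8% ± 4.33 (SD, n = 3) was 4.54 times the lymph node share. The ranges of the draws were 4.93 to 10.9%, 5.17 to 10.6% and 1.41 to 14.1%, and the exact permutation p was again 0.25.

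**Figure D1:**
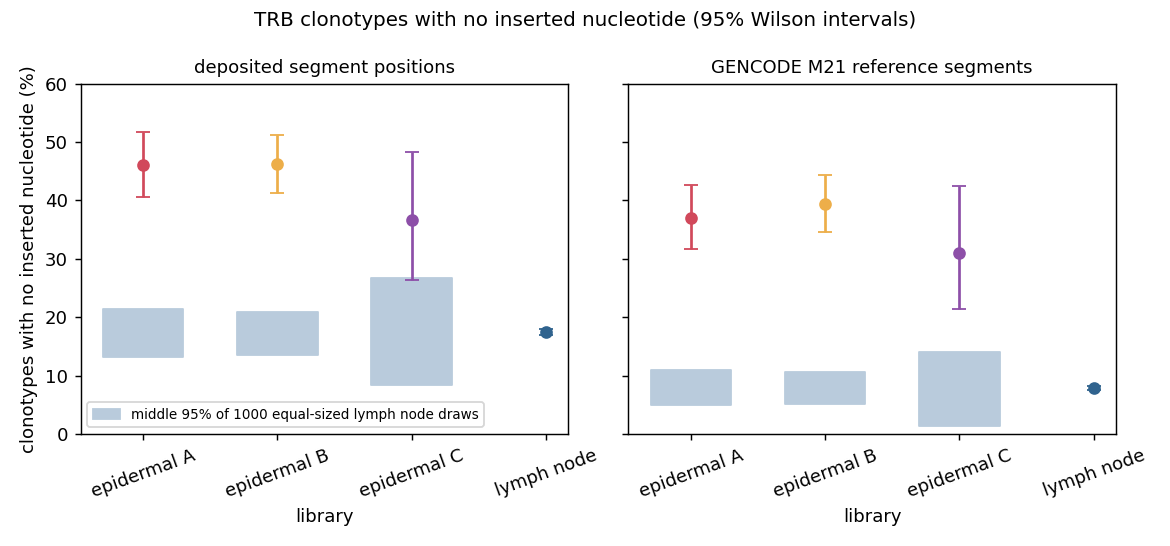
Share of complete TRB clonotypes with no inserted nucleotide in each library, by the deposited positions (left) and by reference segments (right). Points carry 95% Wilson intervals and shaded boxes span the middle 95% of 1000 lymph node draws of the same size. The epidermal points lie at 36.6% or higher on the left and at 31.0% or higher on the right, above every box.

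The share differed within segments as well as over the whole library. Of the TRBV segments with at least 5 complete clonotypes in the epidermal library, the share without insertion was above the lymph node share of the same segment in 13 of 13 for A, 14 of 14 for B and 5 of 5 for C. Among TRBJ segments the counts were 9 of 9, 8 of 9 and 7 of 7. TRBV13-2 had 44.7%, 48.9% and 31.6% without insertion in epidermal A, B and C, and 18.3% in lymph node. TRBJ2-7 had 46.3%, 45.8% and 35.3%, and 15.1% in lymph node. The exception was TRBJ2-3 in epidermal B, with 17.6% of 17 clonotypes against 20.5% in lymph node. Weighting lymph node clonotypes to the V-J mix of A, B and C gave shares of 17.8%, 17.6% and 18.1%, little different from its own 17.4%.

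Both joints of the chain showed the difference. Among clonotypes with a listed D segment, the V-D joint held no inserted nucleotide in 69.3%, 76.7% and 60.8% of epidermal A, B and C clonotypes, and in 43.4% of lymph node clonotypes. The D-J joint held none in 71.8%, 82.5% and 66.7%, and in 42.6% of lymph node. Both joints were without insertion in 56.4%, 67.3% and 47.1%, and in 18.6% of lymph node clonotypes. The epidermal mean of 56.9% ± 10.1 (SD, n = 3) was 3.06 times the lymph node value, with an exact permutation p of 0.25. No D segment was listed for 46.3%, 64.9% and 40% of clonotypes with inserted nucleotides in A, B and C, against 31.3% in lymph node. Among clonotypes without them it was 18.6%, 16.2% and 7.69% against 25.8%. Requiring a D segment thus left out inserted clonotypes more often in epidermis. Over all complete clonotypes the share without insertion was 2.46 times that of lymph node.

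Large epidermal clonotypes lacked insertions more often than small ones. The share was 31.5%, 38.4% and 17.1% among clonotypes with 1 read in A, B and C. It was 63.5%, 59.3% and 70% among those with 100 or more reads, of which there were 74, 113 and 20. In lymph node it was 16.6% at 1 read, 18.3% at 2 to 9 and 22.4% among the 58 clonotypes with 10 to 99. By the deposited positions, clonotypes with 1 read in epidermal C thus lay near the lymph node level, with an interval of 8.10 to 32.7%. By reference segments the shares at 1 read were 15.6%, 23.9% and 17.1% in A, B and C and 7.09% in lymph node. By that reading lymph node rose with read number too, to 8.66% at 2 to 9 reads and 24.1% among the 58 clonotypes with 10 to 99. Counted over reads in place of clonotypes, the share was 69.2%, 54.7% and 56.9% in epidermal A, B and C and 18.4% in lymph node. Read number also reflects PCR, because the labels name no molecular identifiers, and its part in this gradient was not tested.

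**Figure D2:**
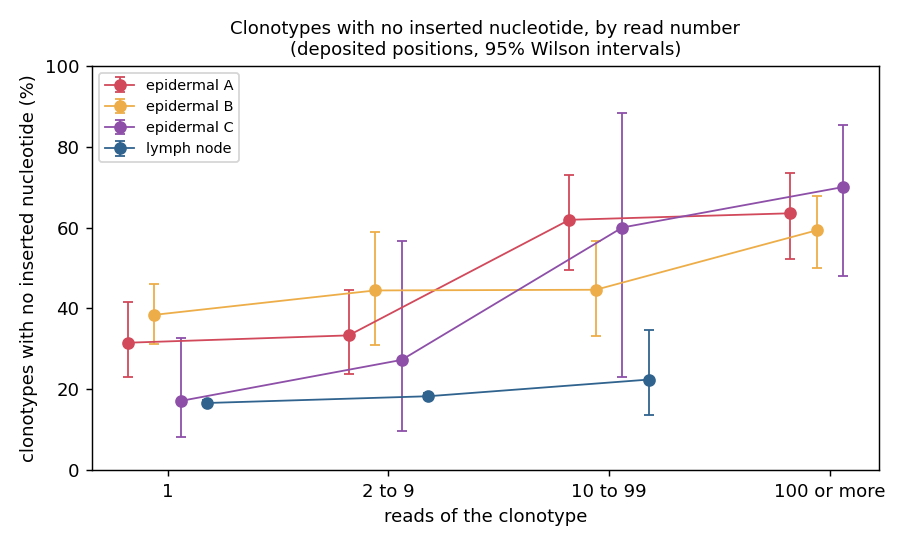
Share of complete clonotypes with no inserted nucleotide by the deposited positions (vertical axis, %) against the reads of the clonotype (horizontal axis, 4 bins), with 95% Wilson intervals. Epidermal shares run from 17.1 to 38.4% at 1 read to 59.3 to 70% at 100 or more, and lymph node stays between 16.6 and 22.4% in its 3 filled bins.

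The mean number of inserted nucleotides separated the tissues less well. It was 2.71, 1.70 and 2.03 in epidermal A, B and C and 2.89 in lymph node, an epidermal mean of 2.14 ± 0.516 (SD, n = 3). The difference of -0.749 had an exact permutation p of 0.5. Epidermal A differed by only -0.185 and lay inside its range of draws, 2.64 to 3.17. This library held 25 clonotypes (8.22%) with 10 or more inserted nucleotides, against 1.03%, 1.41% and 1.20% in B, C and lymph node. Those 25 had at most 10 reads each, made up 0.163% of its reads, and had 8.55 bases trimmed from the listed J segment on average. Their origin was not tested. Without such clonotypes in any library, the means were 1.61, 1.57, 1.91 and 2.79, and the shares without insertion were 50.2%, 46.7%, 37.1% and 17.7%.

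Epidermal CDR3 regions were shorter, by less than 1 residue on average. The mean length was 13.2, 13.1 and 13.2 amino acids in A, B and C, with standard errors over clonotypes of 0.0839, 0.0753 and 0.147, and 13.8 in lymph node. The difference between the means was -0.585, the SD of the 3 epidermal libraries was 0.0532, and the exact permutation p was 0.25. Epidermal A alone differed by -0.549 within its library set. The most frequent length was 13 in all 3 epidermal libraries, with 28.9%, 34.6% and 39.4% of clonotypes, and 14 in lymph node, with 29.9%. Lengths of 15 were found in 13.2%, 13.2% and 11.3% of epidermal clonotypes and in 21.1% of lymph node clonotypes.

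Fewer inserted bases and shorter J ends together made up the shortening, while V and D contributed about as many bases in both tissues. Against the reference, the CDR3 was shorter than in lymph node by a mean difference of -1.74, -1.95 and -1.68 nucleotides in A, B and C. Inserted bases accounted for -0.333, -1.67 and -1.39 of this and J bases for -1.15, -0.502 and -0.779. V bases differed by -0.0550, 0.206 and 0.338, and D bases by -0.126, 0.00579 and 0.152. The balance in epidermal A depended on its clonotypes with 10 or more inserted nucleotides. Without them its inserted bases accounted for -1.33 and its J bases for -0.814.

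**Figure D3:**
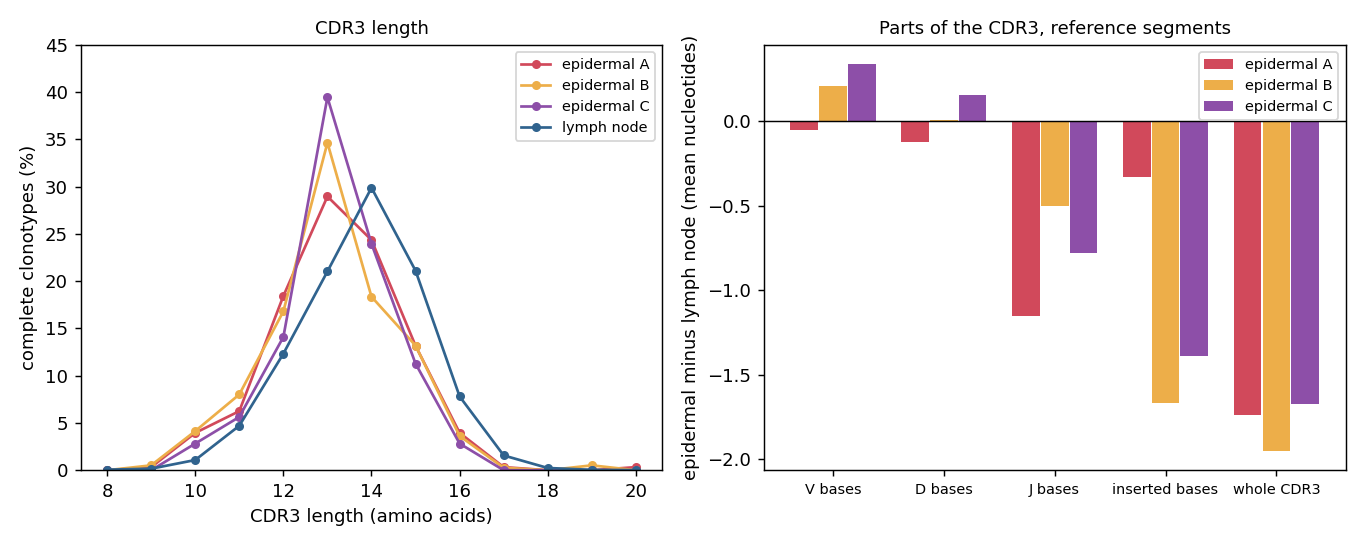
Left, share of complete clonotypes (%) at each CDR3 length in amino acids. The 3 epidermal curves peak at 13 and the lymph node curve at 14. Right, mean nucleotides from V, D and J segments, inserted bases and the whole CDR3, as epidermal minus lymph node for each epidermal library; bars for J bases, inserted bases and the whole CDR3 lie below 0 in all 3.

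Ends of J segments were trimmed further in epidermis than in lymph node. The mean was 3.97, 3.33 and 3.51 bases in A, B and C and 2.86 in lymph node. The epidermal mean of 3.60 ± 0.331 (SD, n = 3) exceeded lymph node by 0.743, with an exact permutation p of 0.25, and the ranges of the draws ended at 3.16, 3.11 and 3.44. Within J segments with at least 5 clonotypes, trimming was above the lymph node mean in 9 of 9, 8 of 9 and 6 of 7. V segments lost 2.89, 2.82 and 2.58 bases, and 2.97 in lymph node. These 3 values lay inside their ranges of draws, and the exact permutation p was 0.5. D segments kept 5.28, 5.06 and 5.82 bases by the deposited positions, and 5.62 in lymph node. The lymph node value for D lay between the epidermal ones, with an exact permutation p of 0.75. Without clonotypes with 10 or more inserted nucleotides, J trimming was 3.61, 3.31 and 3.37 in A, B and C and 2.85 in lymph node. The value of C then no longer lay above 3.44, the end of its range of draws from all complete clonotypes.

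The V segments were tested on clonotype counts with edgeR's quasi-likelihood fit, in which the single lymph node library is assumed to vary like the epidermal ones. The fit also pools the variance over all segments, so its p-values do not rest on the libraries alone. Of 24 TRBV segments with at least 10 clonotypes, 1 (4.17%) passed an adjusted p of 0.05. Lymph node lay outside the 3 epidermal values for 12 of the 24, with 4 segments higher and 8 lower in every epidermal library. Libraries that vary alike without a tissue difference would give about 1 segment in 2. Lymph node, with 26693 clonotypes against 318, 435 and 72, has far less counting error, so that share is not a fair yardstick here. Whether a count of 12 exceeds what sampling gives was not tested. The segment that passed was TRBV8, annotated as a pseudogene on chromosome 6 of GRCm38 (41084821 to 41085105). It was listed for 4, 2 and 1 epidermal clonotypes and 3 lymph node clonotypes (1.26%, 0.460% and 1.39% against 0.0112%). The fitted log2 fold change was 6.09 ± 1.61 (SE) with an adjusted p of 0.0104. Only 3, 1 and 0 of these epidermal clonotypes and 1 of the lymph node ones were complete, and with complete clonotypes TRBV8 had too few for the test. With TMM factors its adjusted p was 0.0684.

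TRBV13-2 was the leading V segment of epidermal A and C. It supplied 15.4%, 12.0% and 26.4% of clonotypes in A, B and C and 10.1% in lymph node. The values of A and C lay above their ranges of draws, which ended at 13.8% and 18.1%, and that of B lay inside. The log2 fold change was 0.75 ± 0.68 (SE), adjusted p = 0.598. Its neighbour TRBV13-1 supplied 6.60%, 2.99% and 2.78% against 9.94%, below the range of draws in all 3 libraries, with a log2 fold change of -1.19 ± 0.78 (SE) and the same adjusted p. TRBV13-3 supplied 6.60%, 14.5% and 9.72% against 12.2%, and lymph node lay among these. The 3 members of the TRBV13 family together took 28.6%, 29.4% and 38.9% in epidermis and 32.2% in lymph node.

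Other V segments with a higher share than lymph node in all 3 epidermal libraries were TRBV12-2 and TRBV19. TRBV12-2 supplied 7.86%, 5.29% and 4.17% against 2.63% in lymph node, and TRBV19 supplied 4.72%, 9.43% and 11.1% against 4.26%. Lower in every epidermal library were TRBV1 (2.83%, 6.21% and 2.78% against 7.99%) and TRBV4 (2.20%, 1.61% and 0 against 4.59%). The 0 of 72 in epidermal C allows a TRBV4 share of up to 4.17%. TRBV12-1, TRBV29, TRBV5, TRBV20 and TRBV23 were also lower in all 3. None of these passed the adjusted threshold. TRBV30 stood apart in epidermal A only, with 15 clonotypes (4.72%) against 0.230%, 0 and 0.240%. Of the 15, 11 had fewer than 10 reads, and without epidermal A the log2 fold change turned from 3.03 to -0.29.

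By position along the locus, the 5 upstream segments TRBV1 to TRBV5 together took 17.9%, 23.0% and 9.72% of epidermal clonotypes and 25.8% of lymph node ones. The 9 middle segments, TRBV12-1 to TRBV17, took 59.4%, 54.7% and 68.1% against 54.4%. The 9 downstream segments, TRBV19 to TRBV31, took 20.8%, 21.8% and 20.8% against 19.8%. Lymph node lay outside the epidermal values in each case, and each exact permutation p was 0.5. The segments known from invariant NKT cells (TRBV1, TRBV13-2 and TRBV29) took 23.0%, 20.5% and 33.3% against 23.1%. Those known from MAIT cells (TRBV13-3 and TRBV19) took 11.3%, 23.9% and 20.8% against 16.4%. For both lists lymph node lay among the epidermal values.

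**Figure D4:**
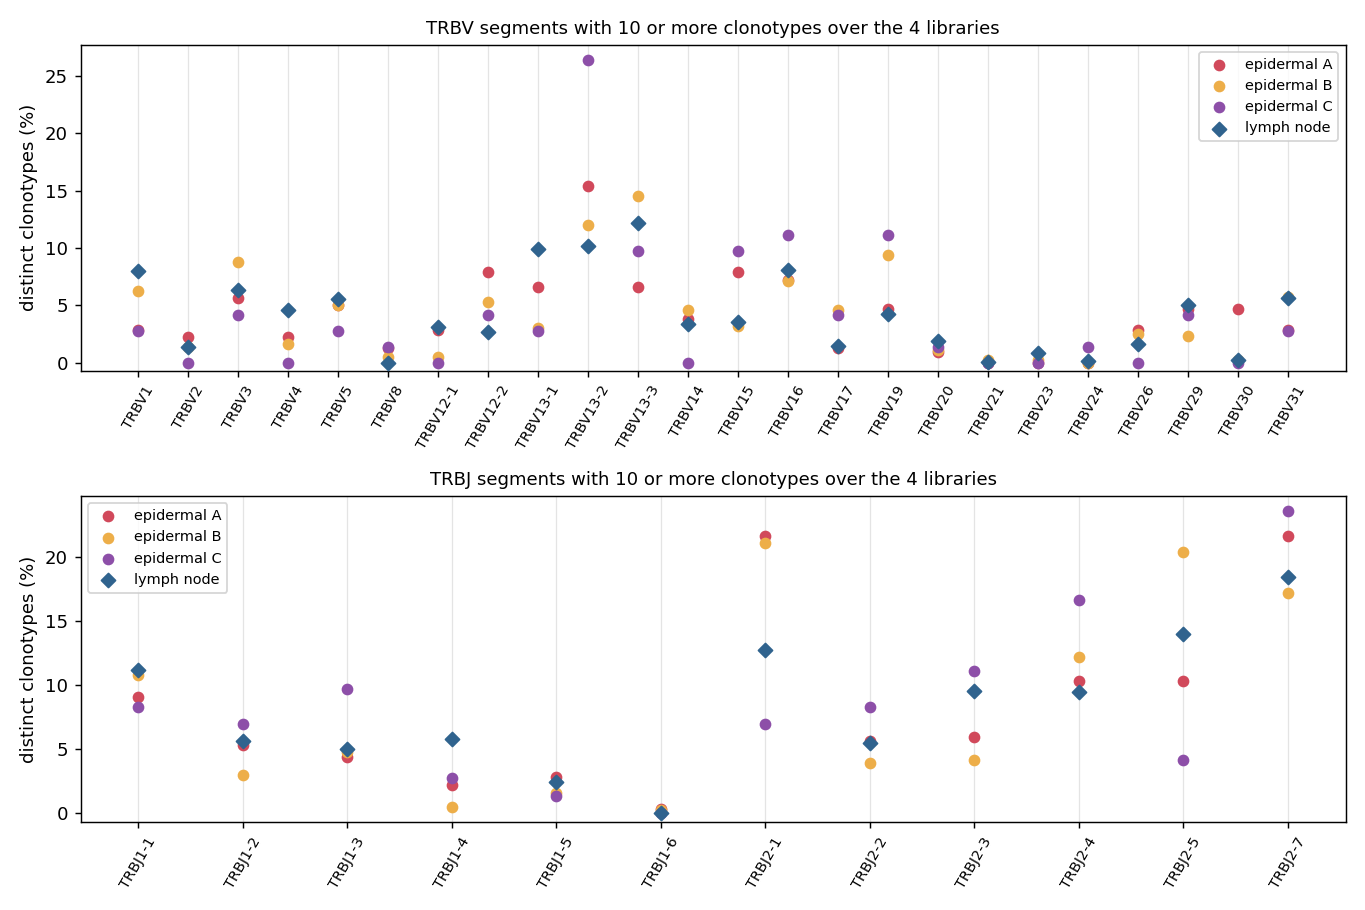
Share of distinct clonotypes (%) with each TRBV (top) and TRBJ (bottom) segment in epidermal A, B and C (circles) and lymph node (diamonds). TRBV13-2 and TRBV12-2 lie above lymph node and TRBV13-1, TRBV4 and TRBJ1-4 below it in all 3 epidermal libraries.

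Of the 12 TRBJ segments tested, 0 (0%) passed, and 1 had an unadjusted p under 0.05 with edgeR. DESeq2 also called 0. Lymph node lay outside the epidermal values for 3 of the 12 segments, a count that was likewise not tested. TRBJ1-4 supplied 2.20%, 0.460% and 2.78% of epidermal clonotypes against 5.83%, a log2 fold change of -2.05 ± 0.77 (SE), adjusted p = 0.159. Its adjusted p was 0.0211 with at least 2 reads per clonotype. TRBJ2-4 supplied 10.4%, 12.2% and 16.7% against 9.48%, and TRBJ1-1 9.12%, 10.8% and 8.33% against 11.2%.

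The epidermal libraries differed widely from each other at 2 J segments. TRBJ2-1 supplied 21.7% and 21.1% in A and B but 6.94% in C, against 12.8% in lymph node. TRBJ2-5 supplied 20.5% in B, 10.4% in A and 4.17% in C, against 14.0%. TRBJ2-7 was common in all (21.7%, 17.2% and 23.6% against 18.4%), and TRBJ2-3 was at 5.97%, 4.14% and 11.1% against 9.56%. TRBJ1-2, TRBJ1-3, TRBJ1-5 and TRBJ2-2 had lymph node shares of 5.63%, 5.01%, 2.46% and 5.51%, each among the epidermal values. TRBJ1-6 stayed at or below 0.314% in every library. The TRBJ2 cluster as a whole took 75.8%, 79.1% and 70.8% of epidermal clonotypes and 69.8% of lymph node clonotypes, with an exact permutation p of 0.5.

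None of the 218 V-J pairs with at least 10 clonotypes passed (0%), while 1 had an unadjusted p under 0.05 with edgeR, and DESeq2 called 0. Epidermal A, B and C contained 123, 104 and 48 of these pairs, and 57 were in no epidermal library. Lymph node, which held most of the clonotypes counted for that filter, contained all 218. The numbers found were not compared with lymph node draws of equal size, so they do not show absence from epidermis. TRBV13-2 with TRBJ2-4 had the largest excess in epidermis, at 5.03%, 1.38% and 5.56% (16, 6 and 4 clonotypes) against 1.07% in lymph node. Its log2 fold change was 1.80 ± 1.18 (SE), adjusted p = 0.963. Leaving out epidermal A, B or C in turn gave 1.25, 2.27 and 1.56, and TMM factors gave 0.92. TRBV13-2 with TRBJ2-3 followed (0, 0.920% and 8.33% against 1.14%), then TRBV13-2 with TRBJ2-1 (4.09%, 2.76% and 1.39% against 1.17%). TRBV19 with TRBJ2-4 (0.943%, 2.07% and 2.78% against 0.371%) and TRBV16 with TRBJ2-7 (1.89%, 1.38% and 5.56% against 1.62%) completed the leading 5.

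The 5 pairs with the largest deficit in epidermis all held TRBV13-1 or TRBV13-3. They were TRBV13-1 with TRBJ2-5 (0.314%, 0 and 0 against 1.36%), TRBV13-3 with TRBJ2-5 (0.314%, 0.460% and 0 against 1.46%) and TRBV13-3 with TRBJ2-3 (0.314%, 0 and 0 against 1.11%). TRBV13-1 with TRBJ1-1 was at 0.943%, 0.230% and 0 against 1.24%, and TRBV13-1 with TRBJ2-1 at 0.943%, 0.460% and 0 against 1.18%. A count of 0 allows up to 0.690% in B and 4.17% in C, so these pairs were not detectably absent from C at its depth.

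In the centre of the CDR3, cysteine and tryptophan took a larger share of residues in all 3 epidermal libraries, by little for tryptophan in C. The centre was the CDR3 without its first 4 and last 4 residues and held 1587, 1983 and 370 residues in A, B and C and 151288 in lymph node. Of 20 amino acids, 2 (10%) passed with edgeR, both higher in epidermis. Lymph node lay outside the epidermal values for 10 of the 20, a count that was likewise not tested. Cysteine made up 0.378%, 0.857% and 1.08% of epidermal residues against 0.0284%, a log2 fold change of 4.58 ± 0.72 (SE), adjusted p = 2.55e-06. Tryptophan made up 4.35%, 5.40% and 2.16% against 1.98%, a log2 fold change of 1.16 ± 0.32 (SE), adjusted p = 0.00912. The tryptophan call was lost with TMM (adjusted p = 0.153), with DESeq2 (0.151) and without epidermal A, B or C (0.155, 0.151 and 0.102), at log2 fold changes between 0.94 and 1.30. In epidermal C its share lay inside the range of draws, 0.739 to 3.41%. Clonotypes with a tryptophan in the centre were 22.7%, 27.4% and 11.3% of epidermal A, B and C and 11.3% of lymph node, so C was not higher by this count, and the exact permutation p was 0.75.

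Clonotypes with a cysteine in the centre numbered 6 of 304, 17 of 387 and 4 of 71 in epidermis and 43 of 26217 in lymph node. These are 1.97%, 4.39% and 5.63% against 0.164%, an epidermal mean of 4.0% ± 1.86 (SD, n = 3) with an exact permutation p of 0.25. The ranges of the lymph node draws ended at 0.658%, 0.775% and 1.41%, so each epidermal value lay above its own. Of the epidermal ones 4, 9 and 2 had at least 2 reads. After folding near-identical sequences into larger clonotypes, 5, 17 and 3 were left, and the shares were 1.72%, 4.55% and 4.29%. The call rests on B and C: without epidermal B its adjusted p was 0.424 and without C it was 0.102, at log2 fold changes of 4.17 and 4.48. A second cysteine in the CDR3 is known to be rare in conventional αβ T cells.

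All 27 epidermal cysteine clonotypes used TRBJ2 segments, as did 31 of the 43 in lymph node. Of all listed clonotypes, TRBJ2 segments took 75.8%, 79.1% and 70.8% in epidermal A, B and C and 69.8% in lymph node. The epidermal cysteine clonotypes used 5, 7 and 2 V segments in A, B and C. By reference segments, with V and J matched before D, the cysteine codon held at least 1 unassigned base in 6 of 6, 12 of 17 and 2 of 4 cases. In lymph node it did in 35 of 43. Such a base could still match a segment in another division of the joint. By the deposited positions, 0%, 41.2% and 0% of these clonotypes in A, B and C had no inserted nucleotide, against 9.30% in lymph node. The 2 largest of A and of B and the largest of C were chosen after their values were seen and are printed with the cysteine codon in capitals.
epidermal A, TRBV12-1 TRBJ2-7: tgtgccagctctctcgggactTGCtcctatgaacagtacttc
epidermal A, TRBV15 TRBJ2-7: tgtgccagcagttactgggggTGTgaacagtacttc
epidermal B, TRBV13-3 TRBJ2-4: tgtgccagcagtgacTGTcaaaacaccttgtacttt
epidermal B, TRBV13-2 TRBJ2-1: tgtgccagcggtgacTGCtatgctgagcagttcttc
epidermal C, TRBV17 TRBJ2-3: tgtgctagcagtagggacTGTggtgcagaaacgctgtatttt

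These 5 had 200, 156, 662, 353 and 1452 reads in their libraries, where the largest cysteine clonotype of lymph node had 5. The last was 3.31% of the reads of epidermal C. The TRBV13-2 TRBJ2-1 sequence reached its cysteine with 0 inserted bases by either reading of the joint. None of the 5 was found in lymph node.

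Much of the tryptophan came with the triplet Asp-Trp-Gly, which is what 1 of the 3 reading frames of TRBD2 encodes. The segment is shown with the codons of that frame in capitals, followed by TRBD1 in the same frame, which encodes Asp-Arg-Gly.
TRBD2: ggGACTGGGGGGGC
TRBD1: ggGACAGGGGGc

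The triplet was in the centre of 34, 60 and 5 epidermal clonotypes, 11.2%, 15.5% and 7.04%, against 4.24% in lymph node. The ranges of draws were 1.97 to 6.58%, 2.33 to 6.20% and 0 to 9.86%, so A and B lay above theirs and C inside. Among clonotypes without inserted nucleotides it was in 17.1%, 26.8% and 15.4% against 6.69% in lymph node. Here A and B lay above their ranges of draws, 2.86 to 11.4% and 3.35 to 10.1%. The value of C, from 4 of 26 clonotypes, lay at the upper end of its range, 0 to 15.4%. Among clonotypes with inserted nucleotides the triplet was in 6.10%, 5.77% and 2.22% against 3.72%, and lymph node lay among the epidermal values. It was not seen with TRBJ1 segments in epidermis (0 of 74, 77 and 21), and was in 14 of 7913 such clonotypes in lymph node. TRBD2 lies downstream of the TRBJ1 cluster and so is not expected to join to it. The exact permutation p was 0.5 for the share over all clonotypes.

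Of the other amino acids, serine, glutamic acid, proline, lysine, valine and isoleucine were less frequent in all 3 epidermal libraries. Proline made up 2.21%, 1.16% and 2.16% against 3.27% (adjusted p = 0.0629), and glutamic acid 3.47%, 2.67% and 4.32% against 5.29% (adjusted p = 0.10). Serine made up 5.61%, 3.88% and 4.86% against 6.83%. Lysine made up 0.189%, 0.202% and 0 against 0.681% (adjusted p = 0.0619). In epidermal C the 0 of 370 residues allows up to 0.811%, so a deficit was not detectable there. Alanine and glycine were more frequent in all 3. Glycine was at 24.1%, 23.2% and 28.6% against 22.1% in lymph node, with a log2 fold change of 0.18 ± 0.19 (SE). Lysine, valine, isoleucine and alanine differed by under 1 point and were named after their values were seen. With at least 2 reads per clonotype, 8 amino acids passed, 3 higher and 5 lower.

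**Figure D5:**
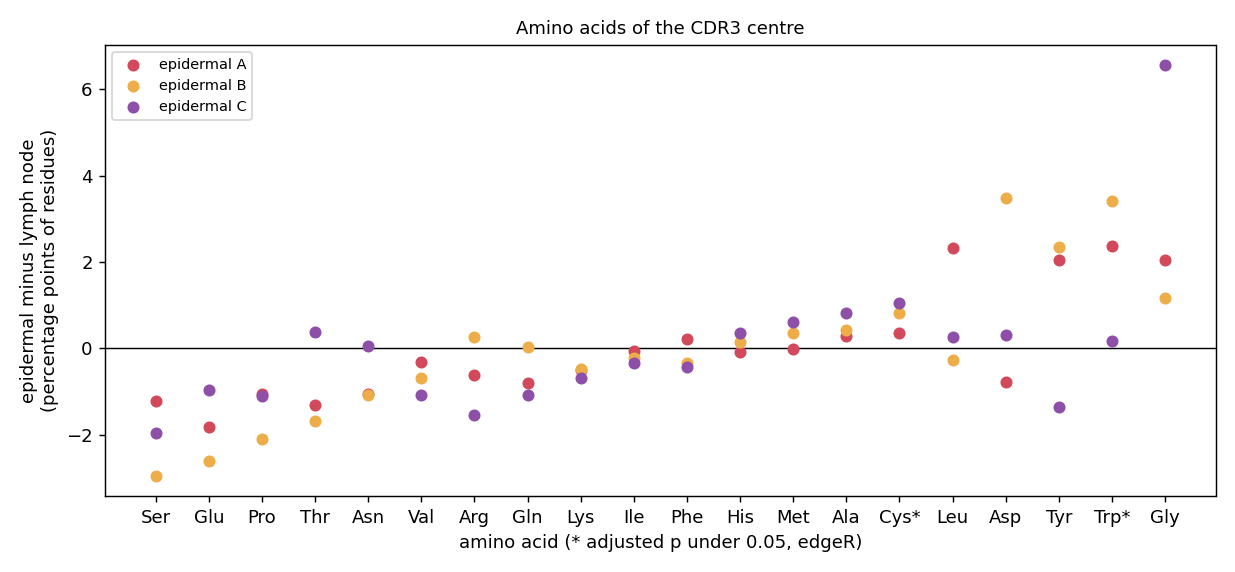
Share of each amino acid among residues of the CDR3 centre, as epidermal minus lymph node in percentage points, for each epidermal library. Cysteine and tryptophan (asterisks, adjusted p under 0.05) and glycine lie above 0 in all 3, and serine, glutamic acid and proline lie below 0 in all 3.

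Few epidermal clonotypes were found in lymph node. That library had 1.97 reads per clonotype, and 52.1% of its clonotypes had 1 read, so it cannot show that a clonotype was absent. Identical V, J and nucleotide CDR3 were found for 38 of 304 clonotypes of epidermal A (12.5%), 12 of 387 of B (3.10%) and 2 of 71 of C (2.82%). These are 0.145%, 0.0458% and 0.00763% of the lymph node clonotypes. The shared clonotypes held 9.85%, 9.42% and 1.54% of the reads of A, B and C. By V, J and amino acid CDR3, 17.1%, 7.82% and 13.2% of epidermal clonotypes were shared. The share by nucleotides was highest for epidermal A, the library in the set of the lymph node. Without clonotypes at under 1% of their read share in another library of the set, it was 10.6% (32 of 303). The shared clonotypes then held only 0.533% of the reads of A, while B and C stayed at 9.42% and 1.54%. Among shared clonotypes of A, 42.1% had no inserted nucleotide, against 46.6% of those not shared. For B the shares were 33.3% and 46.7%. For C they were 50% and 36.2%, the first from only 2 clonotypes, so the order was not the same in the 3 libraries. Between epidermal libraries, A and B had 1 nucleotide clonotype in common and the other 2 pairs had 0.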

How the data were processed

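Per the labels' protocols, Tcrb transcripts in RNA of sorted cells were amplified by 5′ RACE and PCR, and read on an Illumina MiSeq. Not given in the sources used here are the aligner, the clonotype caller and the genome build. Each deposited table gives a read count per clonotype and, as a second value by the authors, the fraction of the library's reads, per the file headers. The tables also list V, D and J segments and their positions in the CDR3.

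From these, distinct clonotypes were counted per segment, V-J pair and amino acid. Segment and pair shares used all listed clonotypes, and length, joints, trimming and centres used complete ones, which left out 14, 48, 1 and 476 in epidermal A, B, C and lymph node. Inserted nucleotides were CDR3 bases that the deposited positions assign to no segment. Trimming was measured against GENCODE M21 (GRCm38) segments, scoring 1 per match and -3 per mismatch, with a D stretch of at least 3 bases.

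Counts were tested with edgeR 4.0.16 (R 4.3.3; quasi-likelihood in its older form, common dispersion, library totals, at least 10 counts, Benjamini-Hochberg adjustment, threshold 0.05), with 2 residual degrees of freedom. These 2 degrees are those of each feature, and the fit pooled the variance over all features of the same libraries. The p-values therefore rest on more than 2 degrees of freedom, gained from features and not from further libraries. The code was tested on simulated data. Single values were compared by exact permutation, and shares have 95% Wilson intervals that cover counting error only. Python 3.11.15, numpy 2.4.6, pandas 2.3.3 and scipy 1.17.1 were used. A count of 0 was given an upper limit of 3 counts. The labels do not say whether pools shared animals, and each p-value therefore measures only how these libraries vary.

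Alternatives were at least 2 reads, removal of traces (under 1% of the read share of the same clonotype in another library of its set), folding of near-identical clonotypes (1 mismatch, 20 times fewer reads), amino acid clonotypes, complete or all clonotypes, reference joints, weighting by reads or V-J mix, TMM, the newer edgeR fit, DESeq2 1.42.0, no count filter, and leaving out each epidermal library. Added after seeing the data were trimming from the deposited positions, folding combined with reference joints or V-J weighting, and removal of clonotypes with 10 or more inserted nucleotides. Named were all TRBJ segments, the TRBV lists, TRBV segments that passed or lay outside with a share of at least 3%, V-J pairs that passed or were among the 5 largest or smallest differences, and amino acids that passed or differed in 1 direction by at least 1 percentage point. The libraries, lists and tests were chosen with earlier results of these data known. The other samples of the series were not analysed here.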

Additional observations from a re-analysis of the deposited data

How the results depend on the processing

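No paired analysis was possible because lymph node is 1 library without a replicate letter, so the groups compared share fewer than 2 letters. The share without inserted nucleotides exceeded lymph node by 35.0 points with at least 2 reads and 41.8 weighted by reads, against 25.5. The inserted mean differed by -1.69 weighted by reads and -0.185 in epidermal A alone. CDR3 length differed by -0.764 with at least 2 reads, -0.642 without traces, -0.656 with all clonotypes and -0.914 weighted by reads, a direction seen in every setting. V trimming differed by -0.746 weighted by reads, and J trimming by 1.11 in epidermal A alone. D bases kept turned from -0.238 to 0.0107 with reference joints, and to 0.0762 when folding was added. Called TRBV segments were 0 with complete clonotypes, with TMM and without clonotypes of 10 or more inserted nucleotides, 2 with the newer edgeR fit, and 0 to 0 leaving out each epidermal library, where TRBV8 fell under the count filter. With at least 2 reads the 1 call was TRBV30, whose log2 fold change was -0.29 to 3.86 leaving out each library, lowest without epidermal A. Called TRBJ segments were 1 with at least 2 reads, 1 without traces and 4 with the newer fit, in place of 0. Called V-J pairs ranged from 0 to 1 leaving out each library. Called amino acids were 8 with at least 2 reads, 5 without traces, 5 without clonotypes of 10 or more inserted nucleotides, 7 with the newer fit, 1 with TMM, 1 with DESeq2, and 0 to 2 leaving out each library. Tryptophan was not called with TMM, with DESeq2 or without each epidermal library in turn (adjusted p from 0.102 to 0.155). The median log2 fold change moved from 0.06 to -0.11 over TRBV segments with TMM, and from -0.52 to -1.24 with TMM and -0.15 with DESeq2 over V-J pairs. The causes were not tested. In all, 103 of 134 values of these comparisons stayed within 1 epidermal SD or 1.5 times the count. Epidermal C, with 72 clonotypes, limits what shares can show, and 1 lymph node library gives no spread of its own. Of those 72, 20 were traces, against 1 in epidermal A, 7 in B and 15 in lymph node, and their origin was not tested. Without traces, clonotypes with a cysteine in the centre were 1.98%, 4.47% and 7.84% against 0.164%, with an exact permutation p of 0.5.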
